A study of Mus musculus with 8 samples.

Results

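Parp1, Parp3, Parp8, Parp9, Parp10, Parp11, Parp12 and Parp14 encode proteins of the PARP family of ADP-ribosyltransferases, and Dtx3l encodes the ubiquitin ligase that pairs with the Parp9 protein. These 9 genes were taken by name, for their link to interferon or as family members to set beside those, out of 18125 genes listed in the expression tables, and all 9 were measured in every library. The data are 8 RNA sequencing libraries of mouse macrophages, 1 per group, all on the C57BL/6 background. Thioglycollate-elicited peritoneal macrophages, collected 3 to 4 days after an injection of 1 mL of 4% thioglycollate, came from Slc6a8-/y mice (KO, lacking the X-linked creatine transporter) and wild-type mice (WT), and were given IFNg (IFN-gamma) at 10 ng/mL for 12 hours or left untreated. Bone marrow-derived macrophages, grown from marrow for 5 days in 10% M-CSF, came from the same genotypes and were given IL4 (IL-4) at 10 ng/mL for 6 hours or left untreated. The labels give no age, and they do not say whether libraries of 1 genotype came from different animals or whether animals were pooled. The comparisons address how macrophages without creatine uptake respond to the cytokines of classical and alternative activation.

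ADP-ribosyltransferases take ADP-ribose from NAD+ and attach it to proteins, as chains in the case of Parp1 and as single units for most other members, and macrodomain proteins bind or remove the mark. Interferons bind their receptors and activate transcription factors that drive many genes through short promoter elements, the gamma-activated sequence (GAS) and the interferon-stimulated response element (ISRE). Several PARP genes, among them Parp9, Parp10, Parp11, Parp12 and Parp14, are known in mouse and human cells as interferon-stimulated genes with roles in antiviral defence, whereas Parp1 is best known as a sensor of DNA breaks.

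The total expected count, an estimate of the fragments assigned to genes, lay between 10812678 and 11065427 in the peritoneal libraries and between 20553654 and 21221526 in those of bone marrow-derived cells. Member genes had 106 to 13844 expected counts in peritoneal libraries and 409 to 8059 in bone marrow-derived ones, so counting error is small for most of them. Slc6a8 was at 0.18 to 1.71 FPKM (fragments per kilobase of transcript, scaled to the library's total) in the 4 KO libraries, against 39.5 to 164 FPKM in the 4 WT libraries. All 7 macrophage markers were at 1 FPKM or more in every library. With 1 library per group, pairs of libraries are compared by size and have no test. The tests given are additive fits with a genotype term and a stimulus term, run for each cell type over its 4 libraries.

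Parp9 and Dtx3l lie head to head on chromosome 16. In the GRCm38 annotation Parp9 spans chr16:35938470-35972605 on the plus strand and Dtx3l spans chr16:35926511-35939151 on the minus strand, so that the 2 spans share 682 bases and the exons of their coding transcripts share 367 bases. The sources used here do not state whether the libraries keep strand, and without strand reads from the shared bases cannot be assigned to 1 of the 2 genes. Parp14 lies on the minus strand at chr16:35832874-35871544, 54966 bases from the near end of Dtx3l. The remaining members are elsewhere: Parp1 on chromosome 1, Parp11 and Parp12 on chromosome 6, Parp3 on chromosome 9, Parp8 on chromosome 13 and Parp10 on chromosome 15.

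**Figure D1:**
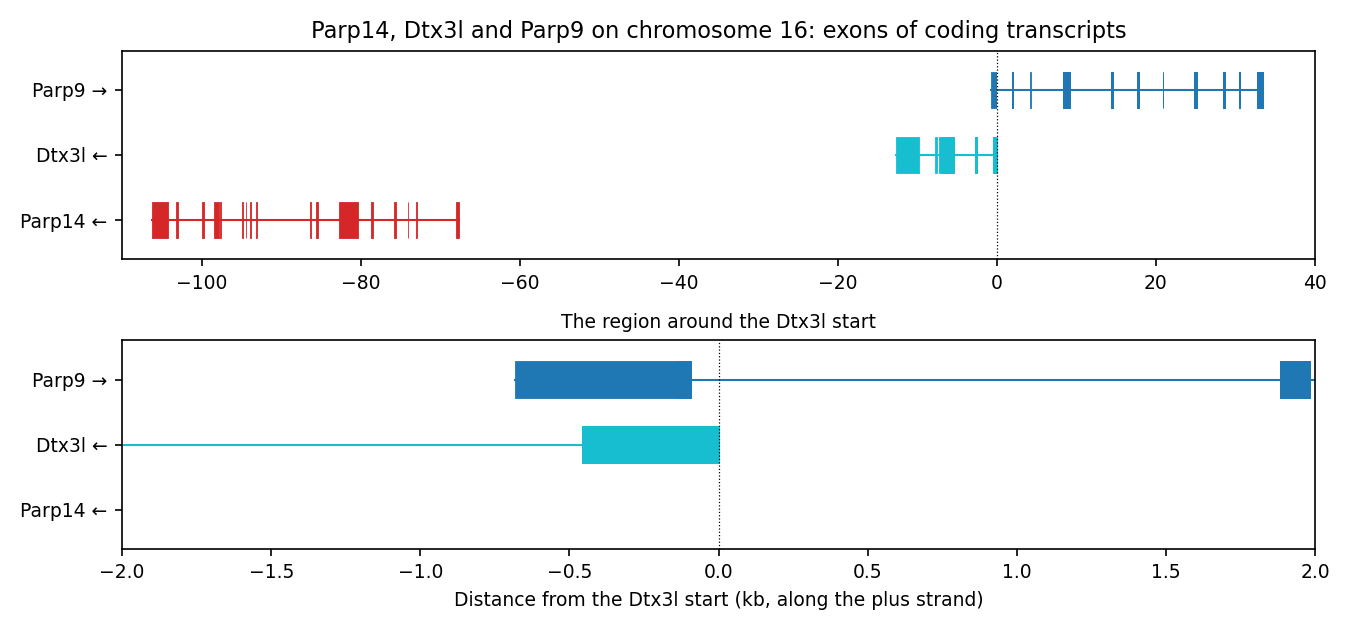
Map of the Parp14, Dtx3l and Parp9 genes by distance in kb from the annotated Dtx3l start, with boxes for exons of coding transcripts and arrows for strand. The upper panel shows the 3 genes and the lower panel the overlap of the first exons of Parp9 and Dtx3l, which share 367 bases.

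The promoter windows of the members that the RefSeq table holds (GRCm38.p6, 250 bases before to 50 after the gene start) were searched on both strands for the ISRE core, spelled GAAANNGAAA, and for the GAS core, spelled TTCNNNGAA. The table held 7 windows for 6 members, namely Parp1, Parp3, Parp8, Parp11 (2 windows), Parp12 and Dtx3l. A match was found in 1 window, that of the upstream Parp11 start (chr6:127446590-127446889, plus strand). It is shown because both motifs fall there in overlapping letters: the ISRE core on the other strand, at -44 to -35 from the start, and the GAS core at -37 to -29, together the 16 bases in capitals. Among all 32851 windows of the table, 3.44% held the ISRE core and 8.3% held the GAS core, and a match is a description of letters. The Dtx3l window (chr16:35938978-35939277, minus strand) is shown for the head-to-head arrangement. Its 17 capitals run from the RefSeq start of Dtx3l to the annotated start of a coding Parp9 transcript on the other strand. The annotated Dtx3l span given above reaches past this RefSeq start. The capitals, the bases after them and part of the bases before them thus lie in the span of both genes.
Parp11: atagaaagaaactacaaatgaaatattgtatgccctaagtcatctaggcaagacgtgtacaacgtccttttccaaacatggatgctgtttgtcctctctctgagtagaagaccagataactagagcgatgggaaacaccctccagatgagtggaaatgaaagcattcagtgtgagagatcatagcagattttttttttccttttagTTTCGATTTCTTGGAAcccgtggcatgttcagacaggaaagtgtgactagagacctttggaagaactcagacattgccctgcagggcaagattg
Dtx3l: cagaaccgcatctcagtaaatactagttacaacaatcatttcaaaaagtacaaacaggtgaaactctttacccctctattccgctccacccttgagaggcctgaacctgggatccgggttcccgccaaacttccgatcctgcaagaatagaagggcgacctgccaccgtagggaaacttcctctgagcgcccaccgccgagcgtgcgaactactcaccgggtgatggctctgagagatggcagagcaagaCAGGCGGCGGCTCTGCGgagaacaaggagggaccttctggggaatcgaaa

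In untreated peritoneal macrophages the 9 genes lay within a narrow range, 3.5 to 17.5 FPKM in KO and 3.16 to 16.9 FPKM in WT, with Parp1 the highest. With IFN-gamma the order changed. Parp14 became the highest member and Parp1 was the lowest of the 9 in KO and the next to lowest in WT. The summed level of the 9 genes was 463 FPKM in KO and 244 FPKM in WT with IFN-gamma, against 77.2 FPKM in KO and 72.5 FPKM in WT without it. Parp14 alone made up 37.1% of that sum in KO and 27.2% in WT with IFN-gamma, against 15.7% in KO and 15.3% in WT untreated. In bone marrow-derived macrophages the sum was 215 FPKM in KO and 156 FPKM in WT with IL-4, against 194 FPKM in KO and 186 FPKM in WT untreated. Parp14 and Parp1 were the 2 highest members in each of these 4 libraries and Parp11 was the lowest. The tables of the 2 cell types were deposited separately, and levels are set across them only side by side.

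**Figure D2:**
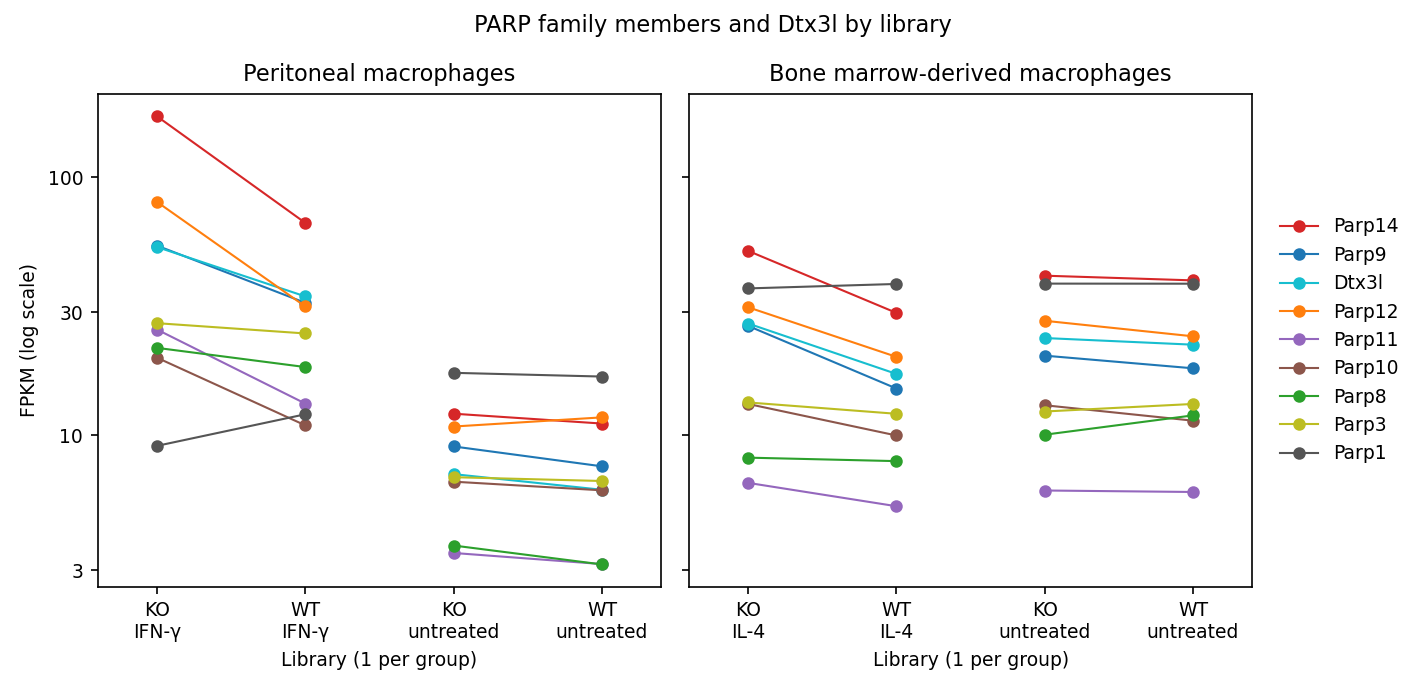
FPKM on a log scale of the 9 genes in each of the 8 libraries, with a point per library and a line joining KO to WT under the same treatment. With IFN-gamma the fan of lines opens from Parp1 at 9.1 FPKM in KO to Parp14 at 172 FPKM in KO, whereas the 2 untreated peritoneal libraries lie close together.

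With IFN-gamma 8 of the 9 genes rose in peritoneal macrophages, and Parp1 fell. In edgeR's quasi-likelihood fit over the 4 peritoneal libraries, 8 members rose and 1 fell at a Benjamini-Hochberg adjusted p under 0.05, where 17.2% of the 12052 genes tested rose and 14.9% fell. The median log2 change of the members was 2.44, beside -0.01 for all genes tested. At least 2-fold higher levels, on the log2(FPKM + 1) scale, were seen for 8 members in KO, where 7.27% of all genes compared met this, and for 7 in WT, where 5.94% did. Parp10 in WT was the member between those counts. Fewer cells of a type and less RNA per cell cannot be told apart in such bulk RNA.

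Parp14, a macrodomain ADP-ribosyltransferase known in mouse B cells as a coactivator of Stat6, gave the steepest rise. It stood at 172 FPKM in KO and 66.4 FPKM in WT with IFN-gamma, against 12.1 FPKM in KO and 11.1 FPKM in WT untreated. Both treated libraries lay above both untreated ones, and the edgeR log2 change was 3.30 ± 0.31 (SE) with an adjusted p of 0.000836. Counted per library total, the response was 14.2-fold in KO, with a 95% interval of 13.3 to 15.2, and 5.98-fold in WT, with 5.57 to 6.43. In WT this overlapped the intervals of Parp8, at 5.82-fold (4.73 to 7.22), and Dtx3l, at 5.61-fold (5.0 to 6.3). These intervals cover counting error alone and say nothing of variation between cultures. Dtx3l, the ubiquitin ligase, was at 53.6 FPKM in KO and 34.5 FPKM in WT with IFN-gamma, against 7.07 FPKM in KO and 6.15 FPKM in WT untreated. Its edgeR log2 change was 2.80 ± 0.15 (SE), adjusted p 0.000105. Parp9, the macrodomain partner of Dtx3l with little transferase activity of its own, was at 54.2 FPKM in KO and 32.6 FPKM in WT with IFN-gamma, against 9.05 FPKM in KO and 7.58 FPKM in WT untreated. Its edgeR log2 change was 2.44 ± 0.16 (SE), adjusted p 0.000196. The 2 partners thus kept similar levels, with a Parp9 to Dtx3l ratio of FPKM of 1.01 in KO and 0.94 in WT with IFN-gamma, and of 1.28 in KO and 1.23 in WT untreated.

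Parp12, a zinc finger member that restricts several RNA viruses, was at 80.1 FPKM in KO and 31.5 FPKM in WT with IFN-gamma, against 10.8 FPKM in KO and 11.7 FPKM in WT untreated. The edgeR log2 change was 2.26 ± 0.35 (SE), adjusted p 0.00483, with the largest SE among the members. Its 2 treated libraries stood far apart while its 2 untreated ones did not. Parp11, a transferase that in human cells acts on the turnover of the type I interferon receptor, was at 25.7 FPKM in KO and 13.3 FPKM in WT with IFN-gamma, against 3.5 FPKM in KO and 3.17 FPKM in WT untreated. It rose by 2.58 ± 0.22 (SE) on the log2 scale in edgeR, adjusted p 0.000526. This is the gene whose upstream window holds the overlapping ISRE and GAS cores printed above. The windows of Parp3, Parp8, Parp12 and Dtx3l held no match, and these genes rose too. Any part of the motifs in the rise was not tested. Parp10, a transferase that attaches single ADP-ribose units, was at 20.0 FPKM in KO and 10.9 FPKM in WT with IFN-gamma, against 6.61 FPKM in KO and 6.12 FPKM in WT untreated. Its rise was the smallest of the 8, at 1.32 ± 0.20 (SE) in edgeR, adjusted p 0.00485.

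Parp3 and Parp8 rose to nearly the same extent in the 2 genotypes. Parp8, a little characterised transferase, was at 21.8 FPKM in KO and 18.4 FPKM in WT with IFN-gamma, against 3.74 FPKM in KO and 3.16 FPKM in WT untreated. Its response was 5.83-fold in KO and 5.82-fold in WT by counts, with counting intervals of 4.82 to 7.09 in KO and 4.73 to 7.22 in WT, and the edgeR log2 change was 2.64 ± 0.12 (SE), adjusted p 5.89e-05. Parp3, which takes part in the repair of DNA double-strand breaks, was at 27.2 FPKM in KO and 24.8 FPKM in WT with IFN-gamma, against 6.88 FPKM in KO and 6.65 FPKM in WT untreated. It rose by 2.04 ± 0.11 (SE) in edgeR, adjusted p 0.000116. Parp1, the DNA break sensor, went the other way. It was at 9.1 FPKM in KO and 12.1 FPKM in WT with IFN-gamma, against 17.5 FPKM in KO and 16.9 FPKM in WT untreated. The edgeR log2 change was -0.61 ± 0.13 (SE), adjusted p 0.0153, and with DESeq2 the adjusted p was 0.0802.

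**Figure D3:**
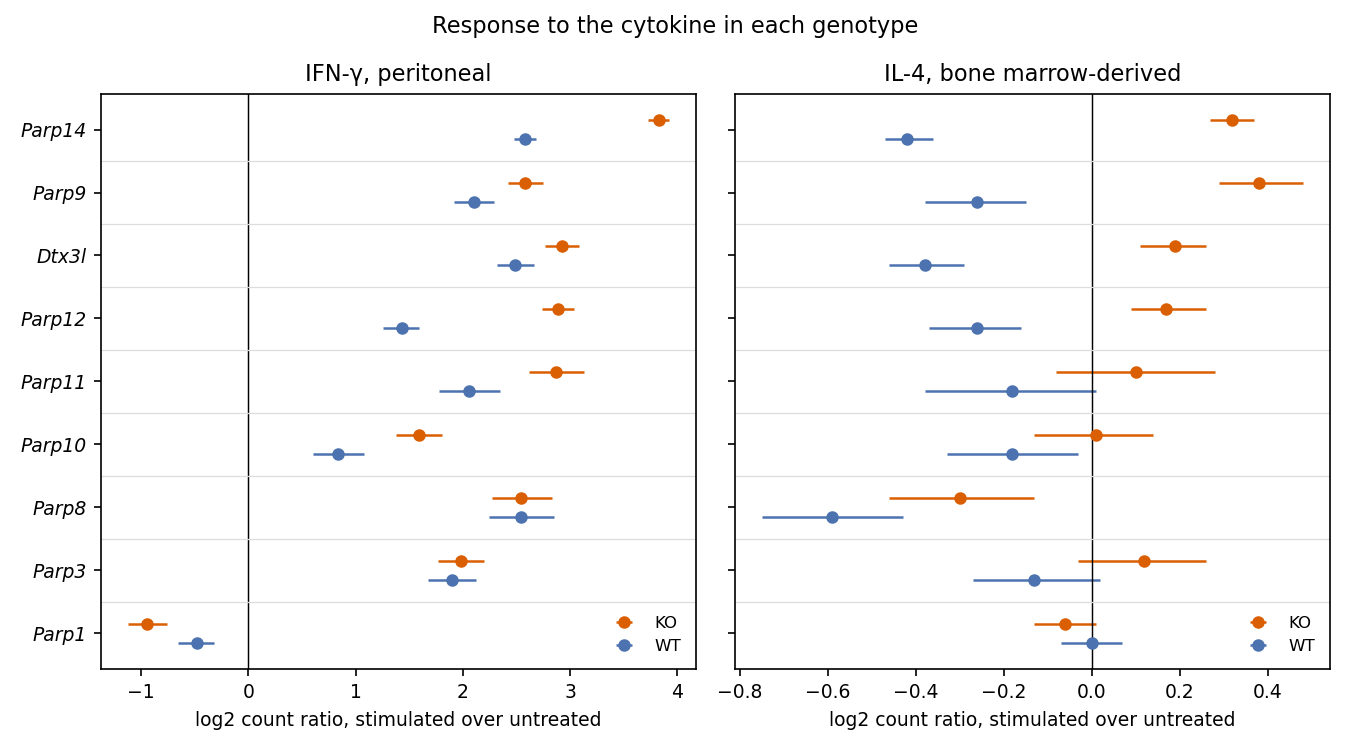
Log2 ratio of counts per library total, stimulated over untreated, for each member in KO and in WT, with 95% intervals that cover counting error only. With IFN-gamma (left) 8 members lie right of 0 in both genotypes and Parp1 lies left of it. With IL-4 (right) Parp14, Parp9, Dtx3l and Parp12 lie right of 0 in KO and left of 0 in WT, and no member lies right of 0 in WT beyond counting error.

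Without stimulation, KO and WT peritoneal macrophages were close for all members. The KO over WT log2 count ratio ran from -0.12 for Parp12 to 0.26 for Parp9. Its counting interval lay wholly above 0 for Parp9 alone, where 19.9% of all genes compared met this, and 0 members were 2-fold apart, where 0.778% of genes were. With IFN-gamma, the KO over WT interval lay above 0 for 7 members, where 17.4% of genes did, and below 0 for Parp1. At least 2-fold higher in KO were 2 members, Parp14 and Parp12, where 1.56% of genes were. Parp14 was 2.59-fold higher in KO by counts (2.51 to 2.67) and Parp12 was 2.54-fold higher (2.37 to 2.72). By the ratio on the log2(FPKM + 1) scale, among 10670 genes, Parp14 ranked 86 and Parp12 ranked 95. Next came Parp11 at 1.94-fold (1.74 to 2.15), Parp10 at 1.83-fold (1.62 to 2.07), Parp9 at 1.66-fold (1.55 to 1.78) and Dtx3l at 1.55-fold (1.47 to 1.64). Parp8 was 1.19-fold higher (1.07 to 1.32), Parp3 was 1.1-fold higher with an interval reaching below 1 (0.995 to 1.21), and Parp1 was at 0.754 of its WT level (0.659 to 0.862).

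Set against their own untreated libraries, the same 4 libraries gave a larger IFN-gamma response in KO than in WT beyond counting error for 6 members, where 10.3% of genes did, and a lower one for Parp1. The KO response minus the WT response, as a log2 difference of counts, was 1.46 for Parp12 (1.24 to 1.68) and 1.25 for Parp14 (1.11 to 1.38), the 2 members at or past a 2-fold difference, where 1.51% of genes were. It was 0.81 for Parp11 (0.44 to 1.19), 0.75 for Parp10 (0.44 to 1.07), 0.48 for Parp9 (0.24 to 0.72) and 0.44 for Dtx3l (0.21 to 0.66). For Parp8 it was 0.00 (-0.40 to 0.40) and for Parp3 it was 0.08 (-0.22 to 0.39), so that no difference was detectable at this depth for either gene.

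The additive peritoneal fit, which tests the genotype over both treatments and counts any unequal response as residual spread, called 0 members for KO against WT. DESeq2 and limma also called 0, and 0.0332% of all genes were called in either direction in edgeR. The edgeR log2 estimates ran from -0.18 ± 0.13 (SE) for Parp1, adjusted p 0.56, to 0.76 ± 0.29 (SE) for Parp14, adjusted p 0.35. Beside this, the summed level of the 7 macrophage markers, most of it Lyz2 and Cd68, was 6072 FPKM in KO and 7426 FPKM in WT with IFN-gamma, against 8399 FPKM in KO and 10096 FPKM in WT untreated. Single markers differed from the sum: with IFN-gamma, Mertk was at 85.0 FPKM in KO and 55.8 FPKM in WT, Fcgr1 at 25.2 FPKM in KO and 62.3 FPKM in WT, and Csf1r at 65.4 FPKM in KO and 118 FPKM in WT. Fcgr1 and Mertk rose with IFN-gamma in edgeR, by 3.95 ± 0.13 and 1.66 ± 0.14 (log2 change and SE). Of 7 T and NK cell markers 3 were listed, and they summed to 3.27 FPKM in KO and 1.62 FPKM in WT with IFN-gamma, against 0.85 FPKM in KO and 0.40 FPKM in WT untreated, nearly all of it Cd3d, with Cd3e at 0 in KO with IFN-gamma. Cd3d rose with IFN-gamma in edgeR (log2 change 2.48 ± 0.38, SE). The 5 neutrophil markers summed to 6.64 FPKM in KO and 11.0 FPKM in WT with IFN-gamma. The 5 eosinophil, basophil and mast cell markers summed to 10.4 FPKM in KO and 6.85 FPKM in WT, nearly all of it Siglecf, with 3 of the 5 at 0. The 5 fibroblast and mesothelial markers summed to 76.4 FPKM in KO and 96.6 FPKM in WT. The 5 dendritic cell markers summed to 0.31 to 1.36 FPKM over the 4 libraries, 1 or 2 of them at 0 in each. The part of other cells in the result was not tested.

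**Figure D4:**
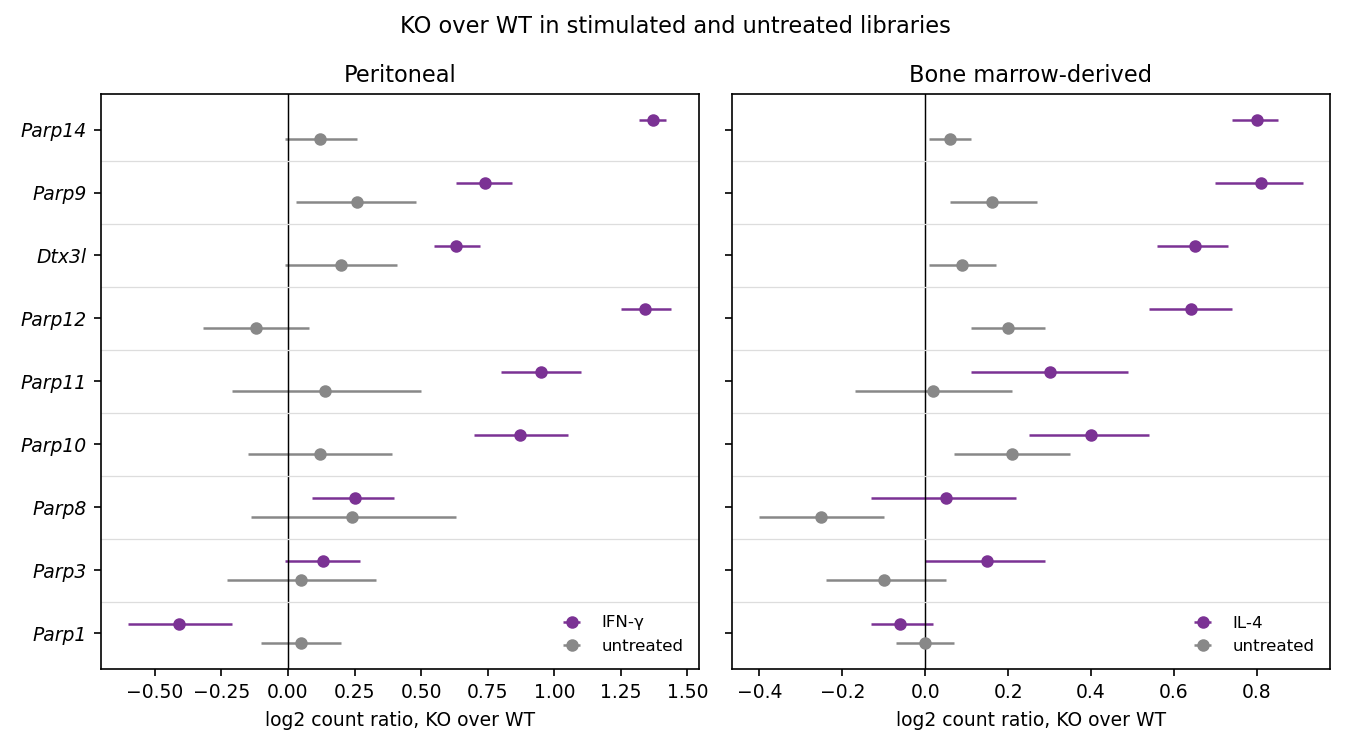
Log2 ratio of counts per library total, KO over WT, for each member in stimulated and in untreated libraries, with 95% intervals that cover counting error only. In both cell types the stimulated ratio of the upper 6 genes lies above their untreated one. The same holds for Parp3 and, in bone marrow-derived macrophages, for Parp8. The gap is largest for Parp12 and Parp14 with IFN-gamma, at 1.46 and 1.25, where their stimulated ratios are 1.34 and 1.37.

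Differences with IL-4 in bone marrow-derived macrophages were far smaller than those with IFN-gamma in peritoneal ones. Cytokine, cell type and time (6 and 12 hours) differ together here, so their parts in this cannot be told apart. For most members the differences with IL-4 ran in opposite directions in the 2 genotypes. The edgeR fit over the 4 bone marrow-derived libraries called 1 member for IL-4 against untreated, Parp8, which fell by 0.40 ± 0.09 (SE) on the log2 scale, adjusted p 0.00825. Of all 12879 genes tested 12.0% rose and 9.23% fell, and the DESeq2 fit gave Parp8 an adjusted p of 0.163. Parp8 was at 8.19 FPKM in KO and 7.94 FPKM in WT with IL-4, against 10.1 FPKM in KO and 11.9 FPKM in WT untreated. Both IL-4 libraries lay below both untreated ones. The edgeR estimates of the other 8 genes were between -0.05 and 0.12. No member was 2-fold apart with IL-4 in KO, where 1.6% of genes were, or in WT, where 1.72% were.

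Behind these small averages, 7 of the 9 genes were lower with IL-4 in WT and higher with IL-4 in KO, a pattern that 15.0% of the 10906 genes compared showed. For Parp14, Parp9, Dtx3l and Parp12 both responses exceeded counting error, and the share of all genes that did so was not computed. In WT the counting interval lay wholly below 0 for 6 members, where 27.9% of genes did. In KO it lay above 0 for 4 members, Parp14, Parp9, Dtx3l and Parp12, where 20.5% of genes did. Parp14 was at 51.8 FPKM in KO and 29.8 FPKM in WT with IL-4, against 41.5 FPKM in KO and 39.8 FPKM in WT untreated. The KO library with IL-4 was the highest of the 4 and the WT library with IL-4 the lowest. By counts the Parp14 response was 1.25-fold in KO (1.21 to 1.29) and 0.749-fold in WT (0.72 to 0.778). Parp9 was at 26.5 FPKM in KO and 15.2 FPKM in WT with IL-4, against 20.3 FPKM in KO and 18.2 FPKM in WT untreated. Dtx3l was at 27.1 FPKM in KO and 17.3 FPKM in WT with IL-4, against 23.8 FPKM in KO and 22.4 FPKM in WT untreated. Parp12 was at 31.3 FPKM in KO and 20.1 FPKM in WT with IL-4, against 27.8 FPKM in KO and 24.2 FPKM in WT untreated. All 3 had the same order of libraries as Parp14.

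The KO response to IL-4 minus the WT response exceeded counting error for 7 members, where 12.1% of genes did, and was 2-fold for 0, where 0.688% of genes were. As a log2 difference of counts it was 0.74 for Parp14 (0.66 to 0.81), 0.64 for Parp9 (0.49 to 0.79), 0.56 for Dtx3l (0.45 to 0.68) and 0.44 for Parp12 (0.30 to 0.57). The other 5 genes gave -0.06 to 0.29. Parp10 was at 13.2 FPKM in KO and 9.98 FPKM in WT with IL-4, against 13.1 FPKM in KO and 11.4 FPKM in WT untreated. Parp11 was at 6.54 FPKM in KO and 5.31 FPKM in WT with IL-4, against 6.11 FPKM in KO and 6.03 FPKM in WT untreated. For both genes WT with IL-4 was the lowest library. Parp3 was at 13.4 FPKM in KO and 12.1 FPKM in WT with IL-4, against 12.4 FPKM in KO and 13.2 FPKM in WT untreated. Parp1 was nearly level, at 37.1 FPKM in KO and 38.6 FPKM in WT with IL-4, against 38.7 FPKM in KO and 38.6 FPKM in WT untreated.

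Between the genotypes, Parp12, Parp9 and Parp10 rose in KO bone marrow-derived macrophages over both treatments. Parp12 gave an edgeR log2 change of 0.42 ± 0.09 (SE), adjusted p 0.0207, Parp10 gave 0.30 ± 0.07 (SE), adjusted p 0.0336, and Parp9 gave 0.49 ± 0.11 (SE), adjusted p 0.0395. These 3 members stand beside 1.51% of all genes that rose, and 0 members fell, where 3.68% of genes did. Parp14, at 0.43 ± 0.13 (SE) and adjusted p 0.0883 in edgeR, and Dtx3l, at 0.37 ± 0.10 (SE) and adjusted p 0.0724, did not pass. The calls depended on the tool: DESeq2 called Parp12 alone, limma on log2(FPKM + 1) called 0, and edgeR without a filter on low counts called 5, adding Parp14 and Dtx3l. Since libraries of 1 genotype may share an animal, these p-values may be too small.

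KO stood above WT for more members, and by more, with IL-4 than without it. In untreated cells KO was above WT beyond counting error for 5 members, where 13.8% of genes were, by at most 1.16-fold (1.05 to 1.27 for Parp10), and Parp8 was lower at 0.842 of WT (0.758 to 0.935). With IL-4 it was above WT for 7 members, where 15.9% of genes were, the lower bound for Parp3 rounding to 0.00 on the log2 scale. Parp9 was 1.75-fold higher in KO (1.62 to 1.88), Parp14 1.74-fold (1.68 to 1.80), Dtx3l 1.57-fold (1.48 to 1.66) and Parp12 1.56-fold (1.45 to 1.67). By the KO over WT ratio on the log2(FPKM + 1) scale, among 10906 genes, Parp14 ranked 74, Parp9 ranked 75, Dtx3l ranked 119 and Parp12 ranked 120. No member reached 2-fold in untreated cells, where 0.403% of genes were 2-fold apart, or with IL-4, where 0.642% were. The 5 fibroblast and mesothelial markers summed to 158 FPKM in KO and 323 FPKM in WT with IL-4, against 183 FPKM in KO and 341 FPKM in WT untreated, with 2 of the 5 at 0 in each library, and Col1a1 and Col1a2 fell in KO in edgeR (log2 changes of -1.01 and -0.91). The part of these cells in the result was not tested.

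Over both cell types, 5 of the 9 genes, Parp9, Parp10, Parp11, Parp14 and Dtx3l, were higher in KO in all 4 KO and WT pairs, a pattern shown by 10.3% of the 10073 genes compared in both. Parp3, Parp8 and Parp12 were higher in KO in 3 pairs and Parp1 in 2. These counts go by sign alone. Parp9 was the only member above counting error in every pair, narrowly so in untreated peritoneal macrophages, at 0.26 (0.03 to 0.48) on the log2 scale. The median ratio of all genes in that pair was 0.04 on the log2(FPKM + 1) scale, a shift that the interval does not remove. The share of all genes above counting error in every pair was not computed. In untreated peritoneal macrophages Parp10, Parp11, Parp14 and Dtx3l lay within counting error, as did Parp11 in untreated bone marrow-derived macrophages.

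Of 7 lists of related genes, 4 held no gene that passed for a rise with IFN-gamma in edgeR, and they are grouped here by that outcome. Of all genes, 17.2% rose and 14.9% fell. Of 8 further ADP-ribosyltransferase genes, 0 rose and 1 fell in peritoneal macrophages in edgeR, namely Parp16, a transferase of the endoplasmic reticulum, by 1.03 ± 0.17 (SE) on the log2 scale (adjusted p 0.00714). Their median log2 change was -0.08. Zc3hav1, which encodes the zinc finger antiviral protein, was at 53.3 FPKM in KO and 31.2 FPKM in WT with IFN-gamma, against 39.4 FPKM in KO and 30.7 FPKM in WT untreated, and did not pass (adjusted p 0.123 in edgeR). Of 6 genes for ADP-ribose removal 0 rose and 1 fell, Macrod1, a macrodomain hydrolase, with an edgeR log2 change of -0.93 ± 0.15 (SE). Of the 4 other deltex genes 3 could be tested, 0 rose and 2 fell, Dtx4 by 1.24 ± 0.11 and Dtx3 by 0.74 ± 0.12 (SE, edgeR). Of 7 repair partners of Parp1, 0 rose and 1 fell, Chd1l, a chromatin remodeller recruited by poly(ADP-ribose), with a log2 change of -0.52 ± 0.14 (SE). The counts of 1 gene that fell are near the share of all genes that did.

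Counts for the supply and use of NAD+ were small. Nampt, the rate-limiting enzyme of NAD+ salvage, was the 1 gene of 6 tested for NAD+ supply that rose with IFN-gamma, a share close to that of all genes. It was at 324 FPKM in KO and 285 FPKM in WT with IFN-gamma, against 40.4 FPKM in KO and 39.0 FPKM in WT untreated, an edgeR log2 change of 3.03 ± 0.11 (SE). Of 6 other NAD+ consumers tested, 2 rose with IFN-gamma, where 17.2% of all genes did, and 1 fell, where 14.9% did. Bst1, an ectoenzyme that splits NAD+, rose by 4.04 ± 0.11 and the related Cd38 by 3.59 ± 0.16, while Sirt1, a deacetylase, fell by 0.62 ± 0.10 (SE, edgeR). Bst1 was at 61.6 FPKM in KO and 96.0 FPKM in WT with IFN-gamma, the opposite order to Parp14.

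Of 13 interferon signal genes tested, 10 rose with IFN-gamma, where 17.2% of all genes did, and 0 fell, where 14.9% did. The median log2 change of the 13 was 1.23. Among those that rose were Irf1 (5.68 ± 0.12), Socs1 (5.43 ± 0.14) and Irf7 (4.13 ± 0.60, log2 change and SE, edgeR). These genes differed in how KO and WT compared. Irf1, a transcription factor induced early by interferon, was at 660 FPKM in KO and 580 FPKM in WT with IFN-gamma. Stat2, a transcription factor of type I interferon signalling, was at 82.5 FPKM in KO and 40.6 FPKM in WT, and Irf7, an amplifier of type I interferon production, at 133 FPKM in KO and 26.8 FPKM in WT. The high KO to WT ratio of Parp14 and Parp12 was thus also seen in Stat2 and Irf7 and less in Irf1. Ifnb1, the interferon-beta gene, had 3 expected counts in KO and 0 in WT with IFN-gamma, against 0 in both untreated peritoneal libraries. In bone marrow-derived macrophages it had 6 counts in KO and 0 in WT with IL-4, against 0 in KO and 2 in WT untreated. Counts this low do not rank the libraries. With IL-4, 5 of 13 interferon signal genes rose, where 12.0% of all genes did, and 0 fell, where 9.23% did. The largest rises were those of Socs1 (3.92 ± 0.14) and Jak2 (1.24 ± 0.06, log2 change and SE, edgeR). Of the remaining lists with IL-4, 2 further ADP-ribosyltransferase genes fell, Tnks by 0.28 ± 0.05 and Parp4 by 0.19 ± 0.05, Dtx4 fell by 0.60 ± 0.05, and Nampt rose by 0.38 ± 0.06 (log2 change and SE, edgeR). For KO against WT, 0 genes of these 7 lists were called in either cell type in edgeR. Few genes were called at all: 0.0332% in peritoneal macrophages, while 1.51% rose and 3.68% fell in bone marrow-derived ones.

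The genes whose pattern was most like that of the chromosome 16 members were found by the root mean square difference of log2(FPKM + 1) over the 8 libraries, after each gene was centred within each cell type, among 10073 genes. For Parp14 the nearest was Stat2 at 0.105, followed by Slfn8 (0.128), Mndal (0.16), Ifi204 (0.207) and Phf11a (0.208). For Parp9 the nearest was Ube2l6 at 0.0688, which encodes the conjugating enzyme of Isg15. Pnp at 0.109 came next, uncertain because its close copy Pnp2 could take part of its reads, then Il15ra (0.12) and Sp110 (0.13), and Dtx3l, its neighbour on the chromosome, was the fifth at 0.135. For Dtx3l the nearest were Casp4 (0.0921), Pml (0.0925), Herc6 (0.0934), Il15ra (0.109) and Apobec3 (0.11). Ube2l6 was at 99.1 FPKM in KO and 64.4 FPKM in WT with IFN-gamma, against 15.7 FPKM in KO and 15.0 FPKM in WT untreated, and the compared genes share all 8 libraries.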

How the data were processed

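The authors deposited expected counts and FPKM values for each gene of each library. Per the submitters' processing notes, Bowtie2 2.2.5, RSEM (version not given in the sources used here) and the mm10 build were used. FPKM as deposited carries no scaling between libraries. Groups came from the labels. Counts were rounded and fitted for each cell type with edgeR 4.0.16 (R 4.3.3, TMM, filterByExpr, genotype + stimulus, 1 residual degree of freedom) over all genes, and called at an adjusted p under 0.05. SEs are the absolute log2 change over the square root of F. Pairs of libraries were compared on log2(FPKM + 1), for genes averaging 1 FPKM or more, and by count ratios with exact conditional binomial 95% intervals. Differences of responses have normal intervals from the counts. PCR copies are not independent molecules, so intervals cover counting error only. DESeq2 1.42.0, limma 3.58.1, RLE factors, no filter, a pseudocount of 0.1, median-ratio and CPM scaling, and a 1.5-fold limit were alternatives. The edgeR script was tested on simulated data. Members, lists and tests were chosen with earlier results of these data known. Every member was named. Of the other lists, genes called or past 2-fold were named, at most 4 a list by size, and Zc3hav1, Stat2 and Ifnb1 were chosen after their values were seen, as were values of Irf1 and Irf7 by library. A result that needs a withheld item is not reported here. Symbols came from RefSeq GRCm38.p6 for 18076 of 18125 genes. Figures used matplotlib 3.10.9.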

Additional observations from a re-analysis of the deposited data

Results flagged for a closer look

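In several cases the single libraries of 2 conditions moved in opposite directions, and in each the difference was not tested, since every condition holds 1 library. The response to IL-4 was of opposite sign in KO and WT bone marrow-derived macrophages for 7 genes. The KO response minus the WT response, as a log2 difference of counts, was 0.74 for Parp14, 0.64 for Parp9, 0.56 for Dtx3l, 0.44 for Parp12, 0.28 for Parp11, 0.24 for Parp3 and 0.19 for Parp10. The 2 responses were of opposite sign beyond counting error for 4 of these genes, Parp14, Parp9, Dtx3l and Parp12. No share of all genes was computed for this. For Parp3 and Parp11 both responses lay within counting error of 0, as did the KO response of Parp10 and its difference of 0.19. The KO over WT difference was of opposite sign with IL-4 and without it for Parp8 (0.29), Parp3 (0.24) and Parp1 (-0.06), where the Parp1 value lies within counting error. The KO over WT ratio of Parp8 with IL-4, 0.05 (-0.13 to 0.22), lay within counting error of 0. So did that of Parp3 in untreated cells, -0.1 (-0.24 to 0.05). In peritoneal macrophages the KO over WT difference was of opposite sign with IFN-gamma and without it for Parp12 (1.46) and Parp1 (-0.45). The untreated ratios of both genes lay within counting error of 0.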

How the results depend on the processing

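No paired analysis was possible because every group holds 1 library, and for the same reason leaving out a replicate could not be run. The IFN-gamma count of 8 members that rose was the same under every alternative fit. The member that fell (Parp1) was lost with DESeq2, which gave 0, as was the member that fell with IL-4 (Parp8), also 0. For KO against WT in bone marrow-derived macrophages the 3 members that rose became 5 with no filter on low counts, 1 with DESeq2 and 0 with limma on log2(FPKM + 1). The cause was not tested. With a 1.5-fold limit in place of 2-fold, 1 member was lower with IFN-gamma in KO, 6 were higher in KO than WT with IFN-gamma, 4 had a larger IFN-gamma response in KO, 4 were higher in KO than WT with IL-4 and 2 had a larger IL-4 response in KO. Of the single fitted values, 135 kept their call, 7 lost it and 2 gained it. No called value changed direction. The Parp1 value for IL-4, which was not called, was 0.01 in edgeR and -0.03 with limma. Among the pair ratios, other scalings changed a sign only for Parp1 and Parp3, at values near 0, and moved a ratio by at most 0.34. The median of all genes shifted by -0.11 on the log2 scale for IFN-gamma over untreated in KO.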
